A study of Mus musculus with 28 samples.

Results

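The 7 genes described here encode macrophage surface receptors that have been reported to bind von Willebrand factor (VWF), together with close relatives: Lrp1, Clec10a, Mgl2, Msr1, Itgav, Itgb3 and Stab1. They were chosen by name, for binding that has been reported and with earlier results of these data known, and all 7 were found among the 54532 genes of the count table. Their transcripts were followed in 28 cultures of murine bone marrow-derived macrophages (BMDMs), which the study grew in M-CSF, the growth factor that drives bone marrow cells into macrophages. Every culture was washed and given fresh medium with CaCl2, and then received PBS (Ctrl), 10 µg/ml of plasma-derived VWF (VWF) or 100 ng/ml of bacterial lipopolysaccharide (LPS). Cells were collected after 3.5 h or 16 h, with 5 Ctrl, 5 VWF and 4 LPS cultures at each time. The bone marrow came from C57/B6JB mice, as the methods spell the strain, and no genetic change is named. Cultures are labelled as biological replicates, but nothing in the sources used here says how many mice they came from, so the tests measure the spread between cultures.

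VWF is the large plasma glycoprotein that tethers platelets to injured vessel walls and carries coagulation factor VIII. Macrophages in liver and spleen take part in clearing it from blood, through several unrelated receptors. LRP1 is a very large endocytic receptor of the LRP family. Msr1 encodes the class A scavenger receptor SR-A1, and Stab1 encodes stabilin-1, another scavenger receptor. Clec10a and Mgl2 encode the paired mouse macrophage galactose-type lectins, which recognise galactose and N-acetylgalactosamine on glycoproteins. Itgav and Itgb3 encode the αv and β3 chains of the integrin αvβ3, which binds the RGD motif of matrix proteins and of VWF.

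On the GRCm38 assembly, with the GENCODE M21 annotation, Lrp1 (ENSMUSG00000040249) lies on the minus strand at chr10:127538161-127621148 and has 17717 exon bases. Stab1 (ENSMUSG00000042286, chr14:31139013-31168641, minus strand) has 10288 exon bases, and Itgav (ENSMUSG00000027087, chr2:83724397-83806916, plus strand) has 10744. Msr1 (ENSMUSG00000025044) is at chr8:39581685-39642673 on the minus strand, with 6344 exon bases. Itgb3 (ENSMUSG00000020689, chr11:104608000-104670476, plus strand) has 5901. The lectin genes are neighbours on the plus strand of chromosome 11. Mgl2 (ENSMUSG00000040950, chr11:70130329-70137550) has 2094 exon bases and Clec10a (ENSMUSG00000000318, chr11:70156197-70170834) has 2899.

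The lectin genes are near copies of each other, and the longest exact match between their GENCODE coding sequences is shown because it sets how far reads of the pair can be told apart. The match runs for 183 bases, from base 502 of a Clec10a coding sequence of 924 bases and from base 550 of an Mgl2 coding sequence of 1143 bases.
Clec10a and Mgl2: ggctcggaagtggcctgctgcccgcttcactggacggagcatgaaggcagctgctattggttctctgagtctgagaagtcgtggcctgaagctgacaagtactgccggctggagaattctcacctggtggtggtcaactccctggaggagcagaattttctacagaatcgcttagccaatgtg
Over all exons, 2.64% of the 100-base windows of Clec10a also occur in Mgl2, and 3.95% of those of Mgl2 also occur in Clec10a. Reads inside this stretch cannot be assigned to a gene by their sequence, so the low Mgl2 values could hold some Clec10a reads. Other overlaps were small. The antisense gene Gm13684 covers 5.90% of the Itgav exon bases and held between 0 and 16 counts in any culture. Nt5dc2 covers 1.09% of the Stab1 exon bases on the opposite strand and held between 418 and 5928 counts. The strand setting of the counting is not given in the sources used here.

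Promoter sequences of RefSeq (GRCm38.p6) were given for 4 of the 7 genes: Lrp1, Mgl2, Itgav and Stab1. The 250 bases before the start are printed for Lrp1 and Stab1, because both encode very large endocytic receptors with more than 10000 exon bases. Capitals mark matches on either strand to the GC box GGGCGG, the CCAAT box CCAAT, the PU.1 core GAGGAA and the STAT motif TTCNNNGAA. Lrp1 is read at chr10:127621149-127621398 and Stab1 at chr14:31168642-31168891, both on the minus strand.
Lrp1: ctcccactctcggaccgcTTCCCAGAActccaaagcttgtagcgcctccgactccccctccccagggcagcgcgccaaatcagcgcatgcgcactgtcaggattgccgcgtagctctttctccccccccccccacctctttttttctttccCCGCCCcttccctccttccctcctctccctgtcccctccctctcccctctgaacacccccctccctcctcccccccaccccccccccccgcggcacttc
Stab1: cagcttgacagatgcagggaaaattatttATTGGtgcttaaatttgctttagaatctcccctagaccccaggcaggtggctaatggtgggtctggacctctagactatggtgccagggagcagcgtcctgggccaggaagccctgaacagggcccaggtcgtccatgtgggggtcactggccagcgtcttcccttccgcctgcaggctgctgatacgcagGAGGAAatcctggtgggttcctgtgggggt
The Lrp1 window holds a STAT match, present in 7.02% of the 32851 promoters in the table, and a GC box, present in 32.7%. In the Stab1 window there is a CCAAT box, present in 33.8% of promoters, and a PU.1 core starting 30 bases before the start, present in 23.3%. PU.1 is the lineage factor of macrophages. Matches to the interferon element (GAAA, any 2 bases, GAAA), the AP-1 site TGANTCA, the NF-κB core GGGNNTTCC, the STAT6 motif (TTC, any 4 bases, GAA) and the TATA box TATAAA were looked for as well and are not in either window. These matches describe the letters and were not tested for binding. The Lrp1 window has 67.2% G and C, the Stab1 window 57.2%, and the median of all windows was 52.4%.

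Counts per culture summed to between 41131209 and 77699206, with a median of 52986574, and all 7 macrophage markers (Adgre1, Csf1r, Cd68, Itgam, Mertk, Fcgr1 and Lyz2) reached 1 TPM in every group. TPM is a transcript's share of all transcripts, scaled to a fixed total, which corrects for gene length and allows genes to be compared within a culture. CPM is a gene's share of a culture's counts on the same kind of scale, after TMM scaling over all 28 cultures, and is used for each gene across cultures. T cell, B cell and erythroid markers summed to less than 1 TPM in every culture, mast cell and basophil markers to between 0.165 and 4.63, fibroblast markers to between 3.73 and 142.2 and neutrophil markers to between 19.9 and 128.6 TPM. TMM factors were 0.745 to 0.849 in LPS cultures and 0.899 to 1.24 in the others. With library size alone in place of TMM, the middle of the fold changes over every tested gene (median, log2) moved from -0.02 to -0.55 for LPS against Ctrl at 3.5 h and from -0.03 to -0.59 at 16 h. The same shift was from -0.01 to -0.22 for VWF against Ctrl at 3.5 h and from -0.03 to -0.09 at 16 h. Values below are relative to the TMM scale unless another is named. A gene is said to have risen or fallen where its adjusted p was under 0.05, and is called where its log2 fold change also passed 1 in either direction. In bulk samples, fewer cells of a type and less RNA per cell cannot be told apart.

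A pair of cultures stood apart from their groups. Over all genes, Ctrl replicate 5 at 16 h differed from the other Ctrl cultures by a chi-square per degree of freedom of 569.3 to 742.5, against 17.1 to 45.3 among the others, and LPS replicate 4 at 16 h by 265.1 to 468.8, against 46.4 to 94.0. Without that Ctrl culture, VWF against Ctrl at 16 h gave log2 fold changes of 1.72 for Msr1, 0.72 for Stab1, -0.47 for Lrp1, -0.60 for Itgav, -1.09 for Itgb3, -1.67 for Clec10a and -1.998 for Mgl2. LPS against Ctrl at 16 h gave 2.08 for Msr1, -0.73 for Stab1, -0.67 for Lrp1, -0.35 for Itgav, -0.26 for Itgb3, -2.98 for Clec10a and -2.47 for Mgl2 without it. Without the LPS culture the same comparison gave 2.10, -0.56, -0.47, -0.38, -0.53, -3.12 and -2.05 for these genes in turn. No adjusted p of these comparisons with Ctrl crossed 0.05.

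**Figure D1:**
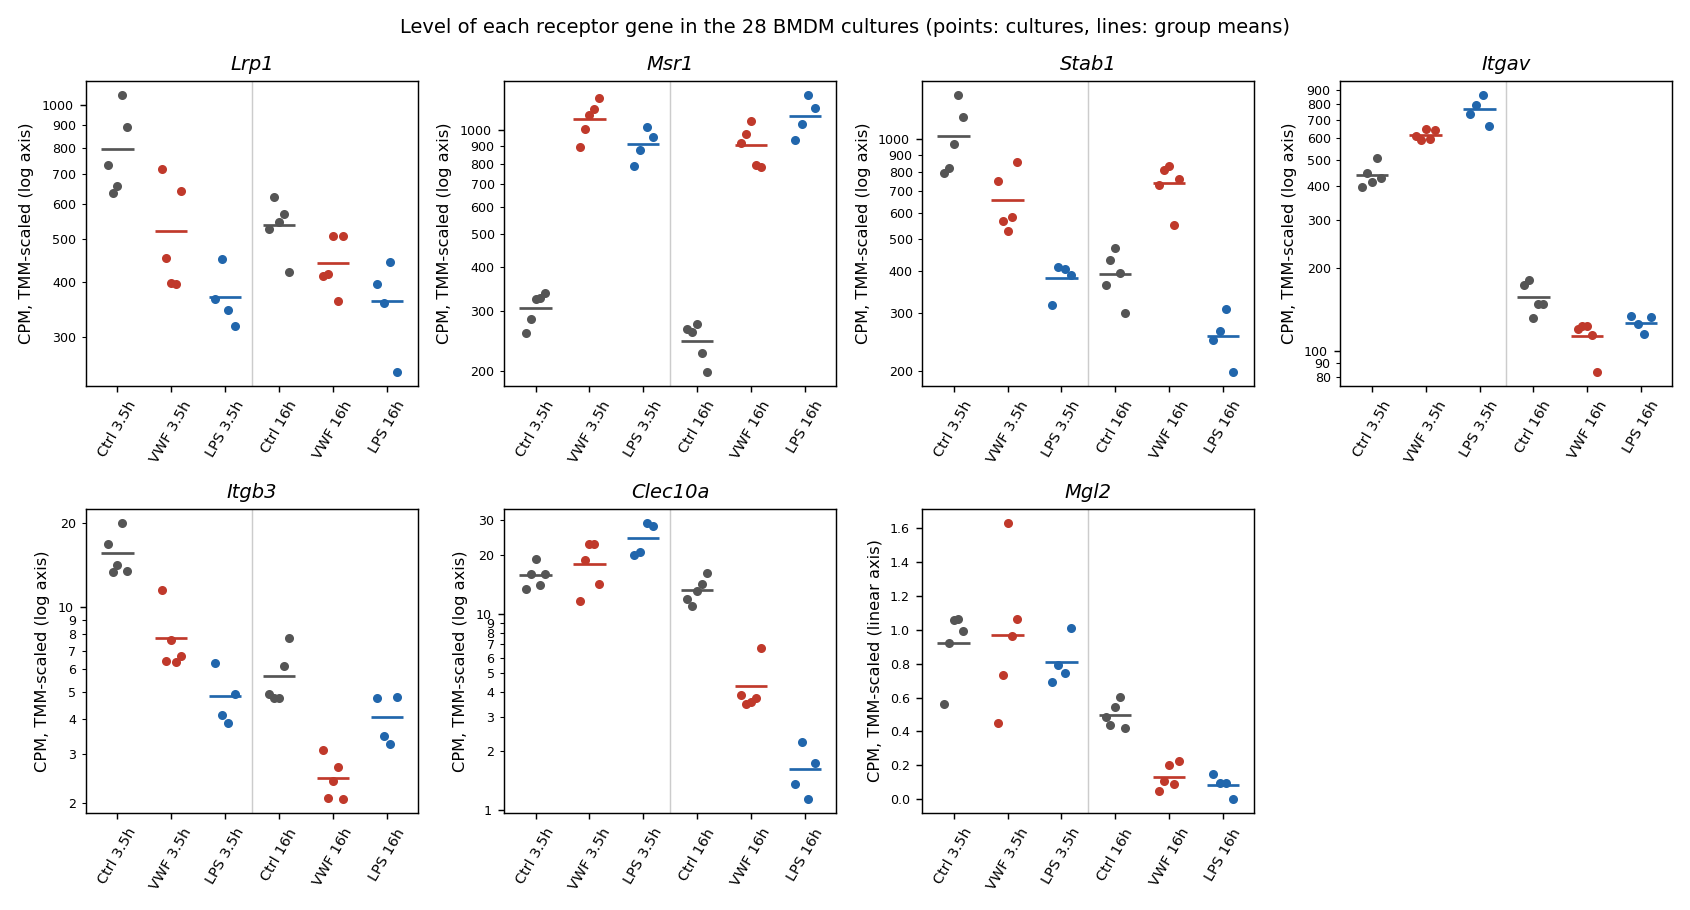
Level of each receptor gene in CPM (y axis, log scale except for Mgl2, which has a linear one) in the 28 cultures, grouped by treatment and time. Points are cultures and lines are group means. Msr1 sat between 782 and 1267 CPM in every VWF and LPS culture and at or below 338 CPM in every Ctrl culture, and Clec10a was below 7 CPM in every VWF and LPS culture at 16 h.

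Per length, the untreated macrophages at 3.5 h expressed Stab1 most, at 332.3 ± 102.0 TPM (SD, n = 5). Msr1 stood at 159.5 TPM there, Lrp1 at 150.4, Itgav at 135.8, Clec10a at 17.8, Itgb3 at 8.83 and Mgl2 at 1.45 TPM (means of 5 cultures). Stab1 made up 40.7% ± 2.88 of the summed TPM of the 7 genes and Msr1 20.1% ± 1.87 (SD, n = 5). With VWF or LPS the order turned over. Msr1 held 51.8% of the sum in VWF and 50.8% in LPS cultures at 3.5 h, and 56.7% and 74.8% at 16 h, against 30.3% in Ctrl at 16 h. The TPM ratio of Msr1 to Stab1 was 0.388 to 0.558 in Ctrl cultures at 3.5 h and 0.923 to 1.18 at 16 h. In VWF cultures it was 1.93 to 3.40 and then 1.67 to 2.32, and in LPS cultures 3.44 to 4.10 and then 6.11 to 9.45. The ranges of Ctrl did not overlap those of VWF or LPS at either time. The sum itself was 806.0 TPM in Ctrl, 885.2 in VWF and 564.1 in LPS cultures at 3.5 h. At 16 h it was 398.6 in Ctrl, 693.2 in VWF and 487.7 in LPS cultures.

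**Figure D2:**
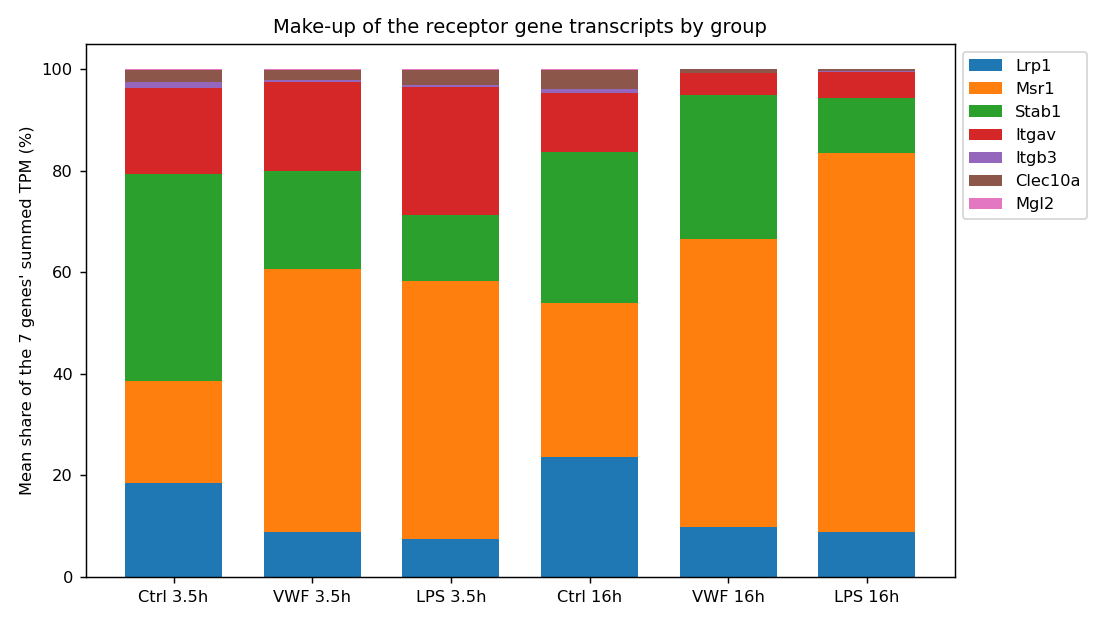
Mean share of each receptor gene in the summed TPM of the 7 genes (y axis, percent, stacked to 100) in each group (x axis). The Msr1 share was 20.1% in Ctrl at 3.5 h and 74.8% in LPS at 16 h, and the Stab1 share 40.7% and 10.7%.

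At 3.5 h, 6 of the 7 genes reached 10 TPM in a culture of the VWF and Ctrl groups, and 1 of them was called higher (Msr1) and 1 lower (Itgb3). By the same rule 14.7% of the 8200 tested genes were called, 9.10% higher and 5.59% lower. By adjusted p alone 2 of the 6 rose and 3 fell, against 43.6% of all tested genes passing in either direction. LPS against Ctrl at 3.5 h called 1 of 6 higher and 3 lower, where 24.5% of 8190 genes were called, 12.8% higher and 11.8% lower. At 16 h, VWF against Ctrl called 1 of 5 higher (Msr1) and 1 lower (Clec10a), against 8.71% of 7798 genes, 4.55% higher and 4.15% lower. LPS against Ctrl at 16 h called the same genes in the same directions, where 27.6% of 7994 genes were called, 15.3% higher and 12.4% lower. Genes under 10 TPM (Mgl2 in every comparison, Itgb3 in most, and Clec10a between VWF and LPS at 16 h) were read from the fit with edgeR's own filter, filterByExpr, except Mgl2 between VWF and LPS at 16 h, which that filter also removed and which was read from the fit without a filter. Itgb3 reached 10 TPM at 3.5 h only through replicate 4 of Ctrl, the group where it was high, so it could be tested there only as a gene that was lower in treated cells. Clec10a passed at 16 h likewise only through Ctrl, and over time in VWF and LPS cultures only through the cultures of 3.5 h. Counts of calls that hold either gene are therefore descriptions, and their filterByExpr values are given as well.

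**Figure D3:**
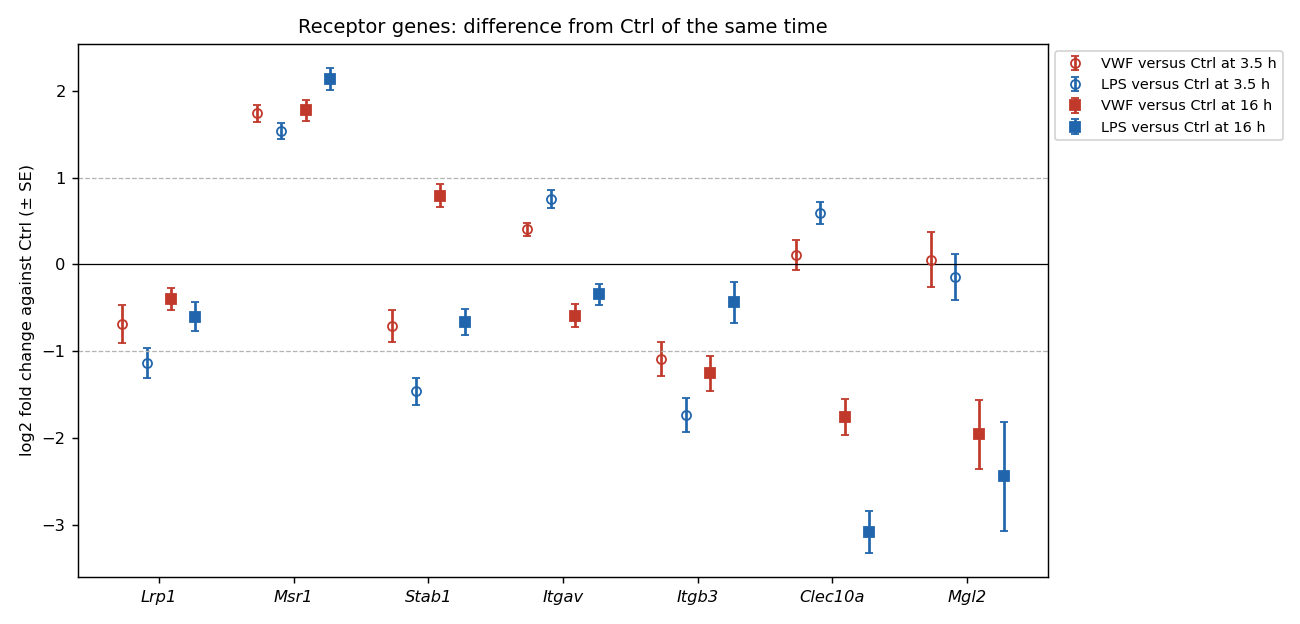
Log2 fold change of each receptor gene against Ctrl of the same time (y axis), with its SE, for VWF (red) and LPS (blue) at 3.5 h (open circles) and 16 h (filled squares). Dashed lines mark the fold threshold. Msr1 was above it in all 4 comparisons, while Stab1 was below 0 in 3 comparisons and at 0.79 with VWF at 16 h.

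Msr1, the scavenger receptor that takes up modified lipoproteins and many polyanions, rose with either agent and stayed high. At 3.5 h the Ctrl cultures held 258, 283, 324, 326 and 338 CPM. VWF cultures held 895, 1007, 1108, 1150 and 1237 CPM, and LPS cultures 789, 875, 1025 and 954 CPM. No treated culture came near a Ctrl culture. VWF raised Msr1 by 1.74 ± 0.10 on the log2 scale (SE, adjusted p = 7.46e-08, n = 5 and 5), and LPS by 1.53 ± 0.09 (adjusted p = 8.20e-08). With library size alone the LPS value was 0.99, just under the fold threshold. VWF and LPS cultures overlapped, and the difference of 0.23 ± 0.11 between them had an adjusted p of 0.085, while with library size alone it was 0.53 (adjusted p = 0.000674).

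At 16 h the gap was as wide. Ctrl cultures held 265, 260, 274, 225 and 199 CPM of Msr1. The values were 919, 979, 1064, 793 and 782 CPM with VWF, and 938, 1044, 1267 and 1161 CPM with LPS. The difference from Ctrl was 1.78 ± 0.12 with VWF (adjusted p = 2.64e-06) and 2.13 ± 0.13 with LPS (adjusted p = 6.20e-07). Directly compared, VWF was 0.31 ± 0.12 below LPS (log2 fold change -0.31, adjusted p = 0.045), with ranges that overlapped. That difference did not hold. It became 0.15 in the other direction with library size alone (adjusted p = 0.34), and its adjusted p was 0.060 to 0.111 without replicate 1, 2, 4 or 5 of VWF or replicate 2, 3 or 4 of LPS. The VWF effect on Msr1 differed between the times by 0.07 ± 0.15 (adjusted p = 0.78) and the LPS effect grew by 0.62 ± 0.15 (adjusted p = 0.00283).

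Stab1, a scavenger receptor of tissue macrophages and sinusoidal endothelium that also takes part in intracellular sorting, fell with both agents at 3.5 h, and at 16 h was higher than Ctrl with VWF and lower with LPS. The Ctrl cultures at 3.5 h held 790, 821, 972, 1363 and 1165 CPM. There were 751, 566, 528, 586 and 856 CPM in the VWF cultures, and 316, 413, 405 and 390 CPM in the LPS cultures. Replicate 5 of VWF lay within the Ctrl range and every LPS culture lay below all others. The log2 fold change was -0.71 ± 0.18 with VWF (adjusted p = 0.00854) and -1.46 ± 0.16 with LPS (adjusted p = 1.07e-05), and VWF was 0.78 ± 0.16 above LPS (adjusted p = 0.00295).

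By 16 h the Ctrl level of Stab1 had dropped to 365, 432, 470, 396 and 299 CPM. VWF cultures held 729, 809, 834, 553 and 760 CPM, so each was above each Ctrl culture. LPS cultures held 249, 264, 308 and 199 CPM, of which replicate 3 was above the lowest Ctrl culture. Against Ctrl the differences were 0.79 ± 0.14 with VWF (adjusted p = 0.00147) and -0.66 ± 0.15 with LPS (adjusted p = 0.00430). With library size alone the LPS value was -1.22, past the fold threshold. VWF exceeded LPS by 1.502 ± 0.15 (adjusted p = 1.58e-05), the 1 receptor gene called among the 4 that could be tested between these groups at 10 TPM, where 25.5% of 7574 genes were called, 11.1% higher with VWF. The VWF effect on Stab1 changed by 1.54 ± 0.24 between the times (adjusted p = 3.70e-05), the LPS effect by 0.83 ± 0.23 (adjusted p = 0.00667). Over time Stab1 fell by 1.33 ± 0.17 in Ctrl (adjusted p = 0.000181), while in VWF cultures the change was 0.21 ± 0.16 (adjusted p = 0.26). The VWF cultures of the 2 times overlapped, whereas the Ctrl cultures did not. Endothelial markers (Pecam1, Cdh5, Kdr and Tek) summed to 1.65 to 2.89 TPM in VWF cultures and 0.545 to 1.33 TPM in Ctrl cultures at 16 h, and 11.3 to 21.8 TPM in LPS cultures, where Kdr was the highest and Tek was at 0 counts, and their part in the result was not tested.

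Lrp1, the endocytic receptor for which roles in VWF clearance by macrophages have been described, was highest in Ctrl at 3.5 h and lower in every other group. Ctrl cultures held 735, 635, 656, 1054 and 892 CPM at 3.5 h. With VWF the values were 716, 452, 397, 395 and 641 CPM, of which replicates 1 and 5 lay within the Ctrl range. With LPS they were 365, 451, 346 and 317 CPM, all below Ctrl. LPS lowered Lrp1 by 1.14 (log2 fold change -1.14 ± 0.17, adjusted p = 0.000142). The VWF difference was -0.68 ± 0.22 (adjusted p = 0.023). It lay between -0.57 and -0.84 with 1 culture left out, and its adjusted p was 0.052 to 0.062 without replicate 4 or 5 of Ctrl or replicate 2, 3 or 4 of VWF. VWF and LPS differed by 0.48 ± 0.22 at 3.5 h (adjusted p = 0.084). With library size alone this difference was 0.79 (adjusted p = 0.016). Its adjusted p was 0.043 without replicate 3 of VWF and 0.0497 without replicate 2 of LPS.

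At 16 h Lrp1 differed less between the treatments. Ctrl cultures held 525, 621, 545, 568 and 421 CPM, VWF cultures 412, 416, 506, 363 and 508 CPM, and LPS cultures 396, 359, 443 and 251 CPM. Replicate 5 of Ctrl lay within both treated ranges. The difference from Ctrl was -0.60 ± 0.17 with LPS (adjusted p = 0.013), and -1.16 with library size alone. With VWF it was -0.40 ± 0.12 (adjusted p = 0.034), and the adjusted p passed 0.05 under 12 of 17 alternatives, among them the leaving out of replicate 1, 2, 3 or 4 of Ctrl (0.062 to 0.091) or 1, 2 or 4 of VWF (0.077 to 0.088). VWF and LPS at 16 h differed by 0.25 ± 0.17 (adjusted p = 0.22), and by 0.70 with library size alone (adjusted p = 0.012). Neither treatment effect changed with time past the threshold (VWF 0.32 ± 0.26, adjusted p = 0.39; LPS 0.56 ± 0.25, adjusted p = 0.078).

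Within groups, Lrp1 and Stab1 varied together with other long transcripts. In each culture the median deviation from the group mean was taken over the 576 other genes with at least 10000 exon bases that reached 10 TPM. Lrp1 deviated to the same side as these long genes in 25 of 28 cultures, Stab1 in 25 and Itgav in 16. In Ctrl replicate 4 at 3.5 h the long genes were 0.32 above their group mean (log2), Lrp1 0.44 and Stab1 0.45 above. In LPS replicate 4 at 16 h the long genes were 0.31 below, Lrp1 0.50 and Stab1 0.34 below (deviations of -0.31, -0.50 and -0.34). Between groups the long genes had a median log2 fold change of 0.02 for VWF and -0.11 for LPS against Ctrl at 3.5 h, and -0.08 and 0.03 at 16 h. It was 0.20 and -0.10 for VWF against LPS at the 2 times, and -0.33 in Ctrl, -0.58 in VWF and -0.35 in LPS cultures from 3.5 h to 16 h. Their part in the Lrp1 and Stab1 differences was not tested.

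**Figure D4:**
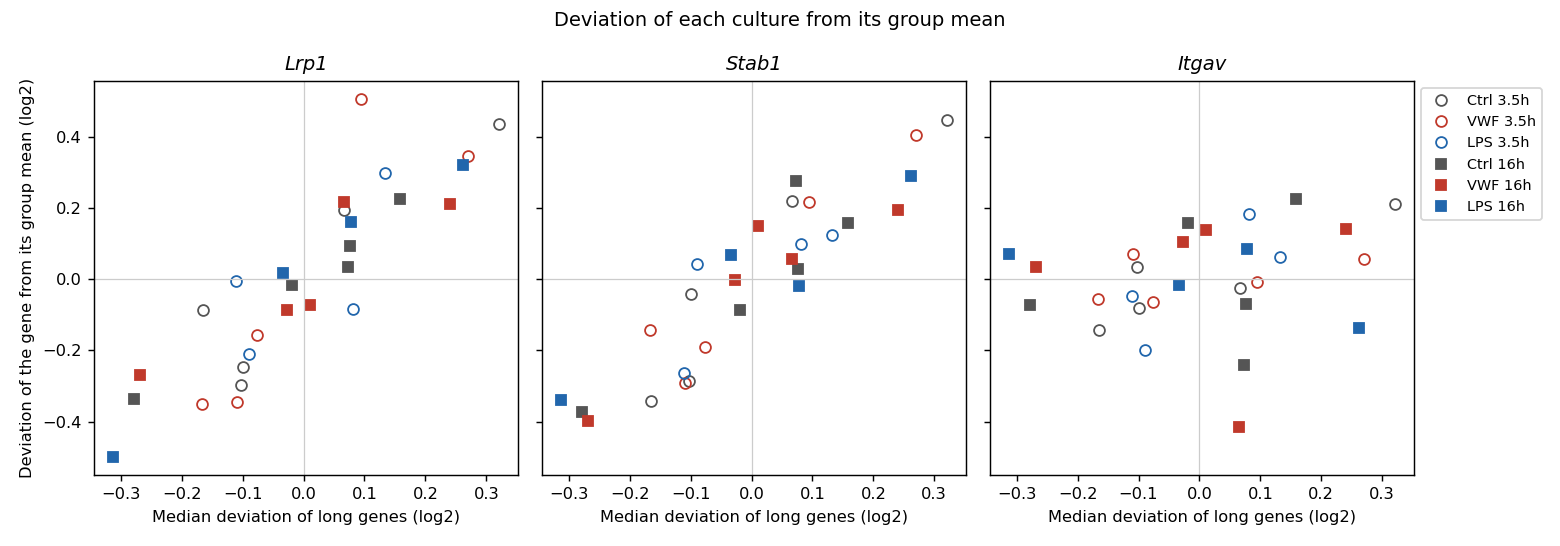
Deviation of Lrp1, Stab1 and Itgav from their group mean (y axis, log2) against the median deviation of 576 other long genes (x axis, log2) in each of the 28 cultures, with open circles for 3.5 h and filled squares for 16 h. Lrp1 and Stab1 shared the sign of the long genes in 25 of 28 cultures, Itgav in 16.

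The integrin chains behaved unlike each other. Itgav, the αv chain that pairs with several β chains, was higher with both agents at 3.5 h and lower at 16 h. At 3.5 h it stood at 396, 448, 414, 507 and 430 CPM in Ctrl cultures, at 611, 589, 645, 592 and 639 CPM in VWF cultures, and at 735, 792, 862 and 662 CPM in LPS cultures. These ranges did not overlap. The log2 difference was 0.40 ± 0.08 with VWF (adjusted p = 0.00125) and 0.76 ± 0.10 with LPS (adjusted p = 5.59e-05), both under the fold threshold. This rise rests on the scaling. With library size alone the values were 0.19 (adjusted p = 0.0995) and 0.22 (adjusted p = 0.091), and in TPM, which has no TMM factor, Ctrl cultures averaged 135.8, VWF 153.7 and LPS 142.2. VWF was 0.32 ± 0.09 below LPS (log2 fold change -0.32, adjusted p = 0.014), and -0.02 (adjusted p = 0.84) with library size alone. Without replicate 3 of LPS the adjusted p was 0.052.

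Time moved Itgav far more than treatment. At 16 h the Ctrl cultures held 174, 182, 132, 149 and 148 CPM, VWF cultures 120, 123, 123, 114 and 83.9 CPM, and LPS cultures 134, 125, 115 and 133 CPM. All 14 cultures were below all 14 of 3.5 h. The log2 change over time was -1.43 ± 0.11 in Ctrl (adjusted p = 9.92e-06), -2.39 ± 0.11 in VWF (adjusted p = 1.12e-08) and -2.52 ± 0.12 in LPS cultures (adjusted p = 7.69e-07). Against Ctrl at 16 h, VWF was at -0.59 ± 0.13 (adjusted p = 0.00702) with no overlap. LPS was at -0.34 ± 0.12 (adjusted p = 0.040), where the adjusted p rose to between 0.054 and 0.109 without replicate 1, 2 or 4 of Ctrl or replicate 2 or 3 of LPS and to 0.107 with filterByExpr. The treatment effects changed with time by -0.96 ± 0.15 for VWF (adjusted p = 6.03e-05) and -1.08 ± 0.16 for LPS (adjusted p = 3.49e-05).

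Itgb3, the β3 chain, was expressed at a small fraction of Itgav and fell where Itgav rose. Ctrl cultures at 3.5 h held 16.9, 13.3, 14.2, 20.1 and 13.5 CPM. VWF cultures held 11.6, 6.42, 7.66, 6.37 and 6.72 CPM, and LPS cultures 6.33, 4.13, 3.86 and 4.92 CPM. The ranges of the 3 groups did not overlap. The log2 fold change was -1.09 ± 0.20 with VWF (adjusted p = 0.000882) and -1.74 ± 0.20 with LPS (adjusted p = 1.42e-05), and with filterByExpr -1.03 and -1.66. Replicate 4 of Ctrl took Itgb3 over 10 TPM; without it the gene was not tested at that filter. VWF was 0.61 ± 0.21 above LPS (filterByExpr, adjusted p = 0.040), which passed 0.05 (0.052 to 0.117) without replicate 1 or 3 of VWF or replicate 2, 3 or 4 of LPS.

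At 16 h Itgb3 was lowest with VWF. Ctrl cultures held 4.89, 4.74, 4.74, 6.15 and 7.79 CPM, VWF cultures 3.10, 2.09, 2.40, 2.69 and 2.06 CPM, and LPS cultures 4.76, 3.47, 3.26 and 4.798 CPM. Every VWF culture was below every other culture of that time. By the filterByExpr fit VWF was at -1.25 ± 0.20 against Ctrl (adjusted p = 0.00103) and at -0.78 ± 0.21 against LPS (adjusted p = 0.00960), the latter -0.31 (adjusted p = 0.22) with library size alone. LPS against Ctrl was -0.44 ± 0.24 (adjusted p = 0.16), and -1.04 (adjusted p = 0.0016) with library size alone. The LPS effect on Itgb3 changed by 1.24 ± 0.32 between the times (adjusted p = 0.00398, and 1.21 with filterByExpr), and the difference between VWF and LPS by -1.36 ± 0.30 (filterByExpr, adjusted p = 0.0014). In TPM, Itgav exceeded Itgb3 by 12.9 to 18.5 times in Ctrl cultures at 3.5 h, by 29.0 to 52.2 times with VWF and by 63.8 to 122.8 times with LPS. At 16 h the ratio was 10.4 to 21.1 in Ctrl, 21.3 to 32.4 in VWF and 15.2 to 19.8 in LPS cultures.

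Itgb3 is also a gene of platelets and osteoclasts, so markers of these were read beside it. The platelet and megakaryocyte list summed to between 886.2 and 4388 TPM in single cultures, nearly all of it Pf4, while 2 to 3 of its 5 markers reached 1 TPM in a group and Gp9 was at 0 counts in VWF cultures at 16 h. The 5 osteoclast markers had a summed TPM of 60.7 to 78.5 in Ctrl, 108.9 to 122.9 in VWF and 179.8 to 334.7 in LPS cultures at 3.5 h. Acp5 was the highest, with means of 34.9, 95.0 and 236.7 TPM, and Calcr was at 0 counts in Ctrl and LPS at that time. At 16 h, where Itgb3 was lowest with VWF, the sums were 39.8 to 110.2 in Ctrl, 115.8 to 190.5 in VWF and 174.5 to 261.1 in LPS cultures. Acp5 averaged 111.5 TPM with VWF and 162.3 with LPS there. Most of the sum in treated cultures was thus Acp5 at both times, and it does not describe the other markers of the list. Their part in the Itgb3 result was not tested.

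The galactose-type lectin genes fell late. Clec10a held 13.4, 16.0, 19.2, 14.0 and 16.0 CPM in Ctrl cultures at 3.5 h, 11.7, 18.9, 22.9, 22.6 and 14.2 CPM with VWF, and 20.1, 20.7, 29.3 and 27.96 CPM with LPS. The VWF values spread around those of Ctrl, with a difference of 0.11 ± 0.17 (adjusted p = 0.67). LPS was 0.59 ± 0.13 above Ctrl (adjusted p = 0.00216), but 0.05 (adjusted p = 0.69) with library size alone, and the mean TPM was 16.8 with LPS and 17.8 in Ctrl. VWF against LPS at 3.5 h was at -0.46 ± 0.19 (adjusted p = 0.067). The adjusted p was 0.0389 with DESeq2, 0.0368 with a block for replicate number, and 0.041 and 0.037 without replicate 3 or 4 of VWF. Under the other scalings and filters the value came as close to no difference as -0.16.

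At 16 h Clec10a stood at 12.0, 11.0, 13.1, 14.3 and 16.2 CPM in Ctrl cultures, at 3.87, 3.47, 3.58, 3.73 and 6.73 CPM with VWF, and at 1.37, 2.23, 1.14 and 1.74 CPM with LPS. The 3 groups did not overlap. The log2 fold change against Ctrl was -1.76 ± 0.21 with VWF (adjusted p = 0.000115) and -3.08 ± 0.24 with LPS (adjusted p = 4.14e-06), and with filterByExpr -1.70 and -2.996. VWF was 1.34 ± 0.28 above LPS (filterByExpr, adjusted p = 0.00256). Over time Clec10a fell by 2.02 ± 0.24 in VWF cultures (adjusted p = 1.71e-05) and fell by 3.84 ± 0.24 in LPS cultures (adjusted p = 2.66e-06), while Ctrl changed by -0.18 ± 0.14 (adjusted p = 0.31). With filterByExpr these were -2.06, -3.87 and -0.23. The effect of VWF changed with time by -1.84 ± 0.28 (adjusted p = 2.88e-05) and that of LPS by -3.66 ± 0.26 (adjusted p = 7.98e-09), and with filterByExpr by -1.85 and -3.68.

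Mgl2 followed at a much lower level. It held 34 to 81 counts per culture in Ctrl at 3.5 h and 24 to 39 at 16 h, against 3 to 12 with VWF and 0 to 7 with LPS at 16 h. In CPM the Ctrl cultures at 16 h held 0.484, 0.438, 0.544, 0.603 and 0.423. VWF cultures held 0.047, 0.109, 0.200, 0.0879 and 0.225 CPM, and LPS cultures 0.149, 0.0969, 0.0988 and 0 CPM. Treated cultures were all below Ctrl. In the filterByExpr fit Mgl2 fell with VWF (log2 fold change -1.96 ± 0.40, adjusted p = 0.00425) and with LPS (-2.44 ± 0.63, adjusted p = 0.00961) at 16 h. At 3.5 h the values were 0.05 ± 0.32 and -0.15 ± 0.26 (adjusted p = 0.93 and 0.66). VWF against LPS at 16 h was at 0.56 ± 0.85 without a filter (adjusted p = 0.64), a comparison that the few reads could not resolve. By the same filterByExpr rule, 9.47% of 14376 genes were called for VWF against Ctrl at 16 h and 27.9% of 14624 for LPS. The lectins are also used as markers of dendritic cells, and 6 dendritic cell markers summed to 0.591 to 1.46 TPM in Ctrl, 0.894 to 3.06 in VWF and 14.2 to 22.1 in LPS cultures at 16 h. At 3.5 h the sums were 0.950 to 1.28, 8.51 to 10.3 and 10.8 to 12.3 TPM. Nearly all of this in treated cultures was Xcr1, with means of 7.92 TPM with VWF and 10.4 with LPS. At that time 2 of the 6 markers reached 1 TPM in a culture with VWF and 1 with LPS. Ccr7 was the highest with LPS at 16 h, at a mean of 9.54 TPM, where 2 of the 6 reached 1 TPM. Their part in the lectin result was not tested.

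Between VWF and LPS at 3.5 h none of the 5 genes past 10 TPM was called, where 11.4% of 7500 genes were. By adjusted p alone Stab1 and Itgav passed, as given above, where 50.2% of all genes tested did. An unadjusted p under 0.05 is a looser rule, which at least those 50.2% of all genes tested meet, and its exact share was not counted. By it 4 of the 5 genes passed (Lrp1, Clec10a, Itgav and Stab1). DESeq2 also called none of the 5. Over time, Ctrl cultures called 3 of 6 lower (Itgav, Stab1 and Itgb3, the last at -1.41 and with filterByExpr -1.45), against 9.08% of all genes tested and 5.09% lower, VWF cultures 2 of 5 lower (Clec10a and Itgav), against 21.4% and 12.2% lower, and LPS cultures 2 of 5 lower (the same genes), against 28.1% and 13.5% lower. The change of the effect with time was called for 2 of 6 genes with VWF, where 13.5% of all genes were called, for 3 of 6 with LPS (26.3%) and for 1 of 5 between VWF and LPS (25.0%). No receptor gene was called higher at 16 h than at 3.5 h in any treatment. Of all genes tested at 10 TPM, 4.00% were in Ctrl, 9.15% in VWF and 14.6% in LPS cultures. The changes in Ctrl came without VWF or LPS, after the same change of medium.

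Ordered by level, the groups separated differently for each gene. Msr1 ran from LPS at 16 h (mean 1103 CPM) through VWF at 3.5 h, LPS at 3.5 h and VWF at 16 h, neighbours that all overlapped, to a clear gap above Ctrl at 3.5 h (305.4) and 16 h (244.8). Stab1 ran from Ctrl at 3.5 h (1022) through VWF at 16 h (737.0) and VWF at 3.5 h (657.4), which overlapped in turn, to Ctrl at 16 h (392.5) and LPS at 3.5 h (381.0), and last LPS at 16 h (255.3). Itgav had LPS, VWF and Ctrl at 3.5 h as separate steps and the 16 h groups together at the bottom. For Lrp1, Ctrl at 3.5 h (794.3) stood clear of the next group, and all later neighbours overlapped.

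Related genes were read as lists against the same shares of all genes tested, which were 9.10% called higher and 5.59% lower with VWF and 12.8% and 11.8% with LPS at 3.5 h, and 4.55%, 4.15%, 15.3% and 12.4% at 16 h. Other proteins reported to bind VWF were a list of 12 genes, of which 6 reached 10 TPM. The list had 1 gene called higher with VWF and 1 with LPS at 3.5 h, in both cases Itgal, the αL integrin chain of leukocytes, at 2.28 ± 0.24 and 1.12 ± 0.21 against Ctrl (log2, adjusted p = 1.28e-05 and 0.000789). At 16 h it had 2 called higher (Itgal and Itgam) and 1 lower (Lgals3) with VWF, and 2 called higher with LPS (Itgal and Selplg). The last count was 1 without replicate 1 or 2 of Ctrl or replicate 4 of LPS and with all groups in 1 fit. Itgam, the αM chain of the integrin Mac-1, was at 1.18 ± 0.09 with VWF at 16 h (adjusted p = 5.74e-06) and at 0.39 ± 0.10 with LPS (adjusted p = 0.00658, turned to -0.18 with library size alone). Itgb2, the β2 chain that pairs with both, was at -0.09, -0.59, 0.28 and 0.07 for VWF and LPS at 3.5 h and VWF and LPS at 16 h, and of these the second passed (adjusted p = 0.018). Selplg, which encodes the selectin ligand PSGL-1, was at 0.49 ± 0.08 with LPS at 3.5 h (adjusted p = 0.000171, turned to -0.04 with library size alone) and at 1.01 ± 0.12 at 16 h (adjusted p = 7.96e-05), and with VWF at 0.04 and 0.14 (adjusted p = 0.70 and 0.41). The median over the list was -0.02, 0.23, 0.21 and 0.23 in the 4 comparisons, beside -0.01, -0.02, -0.03 and -0.03 over all genes. Vwf, F8 and Adamts13, the genes of VWF itself, of its cargo factor VIII and of the protease that cuts it, were all under 10 TPM.

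Of 12 other genes of the family of LRP1, 4 were tested at 3.5 h. VWF had 1 called lower (Lrp12, -1.12 ± 0.11, adjusted p = 6.18e-06), and LPS 3 called lower (Lrp5, Lrp6 and Lrp12, the last at -1.91 ± 0.13, adjusted p = 2.24e-07). None of 2 was called with VWF at 16 h (edgeR and DESeq2), and 2 of 3 were called higher with LPS (Lrp10 and Lrp11, the former at 1.77 ± 0.29, adjusted p = 0.000694). With filterByExpr LPS had 7 of 11 called at 3.5 h, 2 higher and 5 lower, and 4 of 10 at 16 h, 3 higher and 1 lower. By that filter LPS had 27.5% of all genes called at 3.5 h, 12.8% higher and 14.7% lower. At 16 h it had 27.9% called, 14.3% higher and 13.6% lower. List medians were -0.61 with VWF and -1.20 with LPS at 3.5 h, and -0.064 and 1.53 at 16 h.

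Genes that handle the LRP1 protein were read next. Of 11 chaperone, processing, shedding and adaptor genes 9 were tested, and 2 were called higher with VWF at 3.5 h (Adam17 and Mmp14) and Mmp14 alone in each other comparison, with Dab2 called lower with LPS at 16 h. With VWF at 16 h 2 were called higher with DESeq2, with median-of-ratios factors, and without replicate 1, 2 or 3 of Ctrl or 2 or 5 of VWF, and 2 higher and 1 lower with filterByExpr. By that filter 4.26% of all genes were called higher and 5.21% lower. With LPS at 3.5 h 3 were also called lower with library size alone, and 1 without LPS replicate 2. Mmp14, a membrane-anchored protease that can shed LRP1, rose in all 4, from 40.5 CPM in Ctrl to 487.8 with VWF and 430.6 with LPS at 3.5 h, and from 20.7 CPM to 460.4 and 1184 at 16 h. Its log2 fold changes were 3.49 ± 0.30, 3.35 ± 0.30, 4.36 ± 0.24 and 5.80 ± 0.34 (adjusted p from 6.20e-07 to 2.47e-06). Lrpap1, the chaperone RAP that keeps ligands off LRP1 on its way to the surface, was at 0.24 ± 0.07 with VWF (adjusted p = 0.015) and -0.51 ± 0.08 with LPS (adjusted p = 0.000281) at 3.5 h, and at 1.00 ± 0.13 (adjusted p = 0.000171) and 0.50 ± 0.14 (adjusted p = 0.011) at 16 h. With library size alone the first of these was 0.03 (adjusted p = 0.74) and the last turned to -0.06. The list medians were 0.24, 0.05, 0.13 and 0.08.

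Among 13 LRP1 ligands, 10 were tested at 3.5 h and 9 at 16 h, and C3 and Plau were called in opposite directions each time. C3, the central complement component, was at 3.56 ± 0.30 with VWF and 4.28 ± 0.30 with LPS at 3.5 h (adjusted p = 2.06e-06 and 2.70e-07) and at 4.47 ± 0.46 and 7.11 ± 0.61 at 16 h (adjusted p = 4.68e-05 and 7.87e-06). In all, 1 ligand was called higher and 1 lower by each agent at 3.5 h, and at 16 h 1 higher and 2 lower with VWF (C3 against Lpl and Plau) and 3 higher and 2 lower with LPS (Thbs1, C3 and Grn against Lpl and Plau). The list medians were -0.01, 0.24, 0.14 and 0.00.

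Partners and activators of the αv and β3 chains numbered 9, of which 6 were tested, and 1 was called higher by each agent at 3.5 h. The count was 0 with VWF and 1 higher and 3 lower with LPS when library size alone was used. The gene was Cd47, which associates with αvβ3, at 1.20 ± 0.07 with VWF and 1.58 ± 0.09 with LPS (adjusted p = 1.02e-07 and 3.89e-08). At 16 h VWF had none called higher and 1 lower, the tetraspanin gene Cd9 (-2.42 ± 0.14, adjusted p = 1.25e-06), and LPS had 1 higher (Cd47, 2.00 ± 0.13, adjusted p = 1.28e-06) and 2 lower (Itgb5 and Cd9). Itgb5, which offers αv another β chain, was at -0.61 ± 0.09 and -0.71 ± 0.10 at 3.5 h (adjusted p = 0.000173 and 0.000106), at 0.54 ± 0.15 with VWF (adjusted p = 0.023) and at -1.59 ± 0.15 with LPS at 16 h (adjusted p = 1.34e-05). The VWF value at 16 h passed 0.05 (0.050 to 0.057) without replicate 1, 2 or 4 of Ctrl or replicate 1 or 4 of VWF. Itgb1, which encodes another partner of αv, lay between -0.10 and 0.23 in all 4 (adjusted p from 0.062 to 0.74). Its VWF value at 3.5 h passed with DESeq2 (0.22, adjusted p = 0.032), with filterByExpr (0.28, adjusted p = 0.020) and without replicate 3 of VWF (0.28, adjusted p = 0.029). Its LPS value at 3.5 h was 0.17, was 0.24 with filterByExpr (adjusted p = 0.043) and turned to -0.37 with library size alone (adjusted p = 0.0036). The list medians were -0.25, -0.44, 0.04 and -0.06.

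Of 7 ligands of αvβ3, 5 were tested and none was called at 3.5 h (edgeR and DESeq2), although with VWF 1 was called lower with library size alone, with all groups in 1 fit, and without replicate 3 or 5 of Ctrl or 4 of VWF. Spp1, which encodes the RGD protein osteopontin, was at -0.98 ± 0.11 with VWF (adjusted p = 1.60e-05) and -0.41 ± 0.13 with LPS (adjusted p = 0.016) at 3.5 h, and at -4.68 ± 0.18 (adjusted p = 9.59e-08) and -0.89 ± 0.21 (adjusted p = 0.00575) at 16 h. The level at 16 h was 28106 CPM in Ctrl, 1186 in VWF and 15501 in LPS cultures. VWF had 1 ligand called lower at 16 h (Spp1, and 2 without VWF replicate 1) and LPS 2 higher (Thbs1 and Tgm2), with the transglutaminase gene Tgm2 at 2.48 ± 0.31 (adjusted p = 9.61e-05). The list medians were -0.13, -0.36, -0.12 and -0.18.

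Scavenger receptors other than Msr1 and Stab1 were a list of 15, with 10 tested at 3.5 h and 9 at 16 h. Each agent had 3 called higher (Marco, Olr1 and Cxcl16) and none lower at 3.5 h. At 16 h VWF had 2 higher (Marco and Cxcl16) and 1 lower (Cd36), and LPS 3 higher (Marco, Scarf1 and Cxcl16) and 3 lower (Scarb1, Mrc1 and Colec12). Marco, a class A scavenger receptor like Msr1, had the largest difference of the list with VWF at both times (4.09 ± 0.24 and 7.34 ± 0.24, adjusted p = 9.52e-08 and 6.99e-08). In CPM it went from 6.16 in Ctrl to 111.0 with VWF and 17.9 with LPS at 3.5 h, and from 6.06 to 1068 and 386.5 at 16 h. LPS raised it by 1.49 ± 0.20 and 5.95 ± 0.34 (adjusted p = 5.58e-05 and 5.77e-07), and Olr1, a receptor of oxidised lipoproteins, was called with LPS at 3.5 h (2.63 ± 0.20, adjusted p = 6.08e-07). Mrc1, the mannose receptor, was at -3.32 ± 0.13 with LPS at 16 h (adjusted p = 5.84e-08) and at -0.94 ± 0.23 with VWF (adjusted p = 0.012). Cd36, a receptor for oxidised lipids and thrombospondin, was at -1.13 ± 0.12 and -0.99 ± 0.10 at 16 h (adjusted p = 4.85e-05 and 2.38e-05) and at -0.14 and -0.08 at 3.5 h (adjusted p = 0.25 and 0.45). With library size alone the 3.5 h values were -0.35 with VWF (adjusted p = 0.011) and -0.61 with LPS (adjusted p = 9.81e-05). The list medians were -0.10, 0.01, 0.00 and -0.19.

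Related C-type lectins were 11 genes with 5 tested. VWF had 1 called higher at 3.5 h (Clec4e) and LPS 2 (Clec4e and Clec4d, a count of 1 without Ctrl replicate 4 and with library size alone). Clec4e, which encodes the receptor Mincle, was at 4.18 ± 0.22 and 3.31 ± 0.23 (adjusted p = 4.13e-08 and 2.25e-07). At 16 h VWF had 1 higher (Clec4e) and 2 lower, Clec7a and Clec4n, of which the latter encodes Dectin-2 (-3.23 ± 0.29, adjusted p = 1.87e-05), and LPS 1 higher, Clec4e (5.16 ± 0.27, adjusted p = 3.46e-07), and 1 lower, Clec7a. The list medians were 0.14, 0.22, 0.26 and 0.55.

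**Figure D5:**
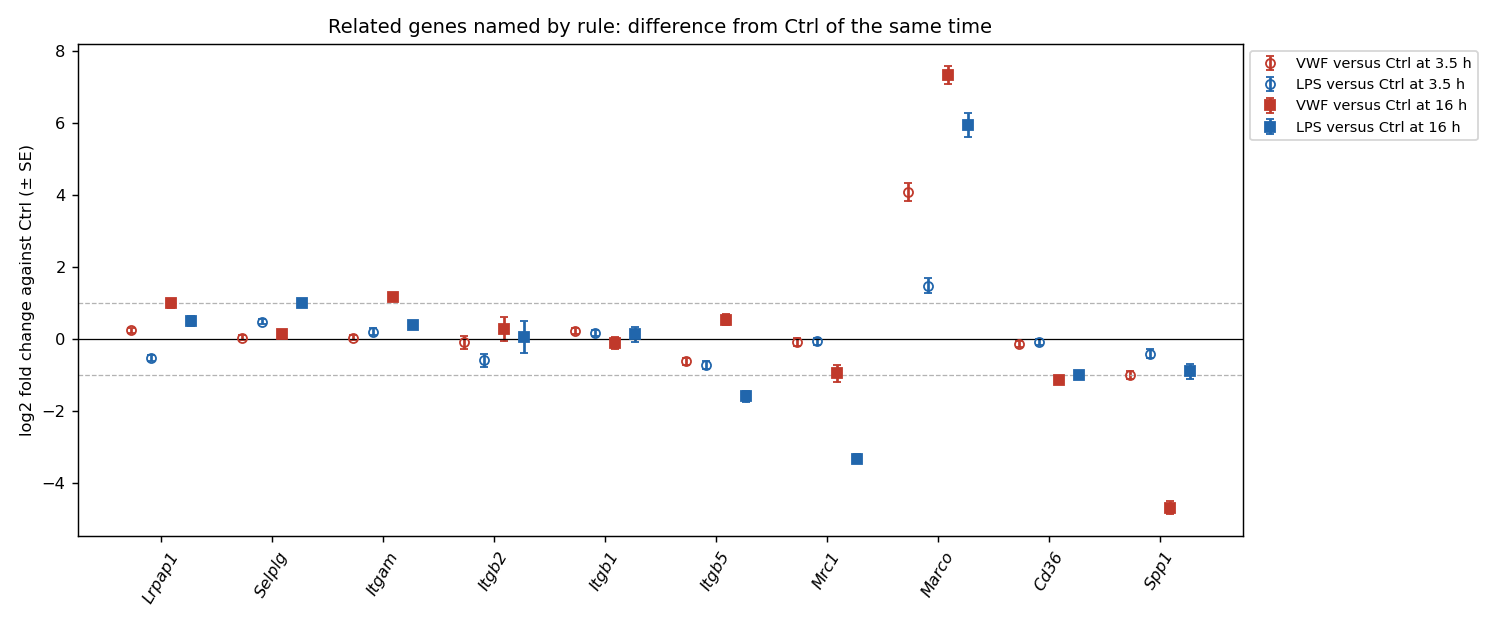
Log2 fold change against Ctrl of the same time (y axis, with SE) of 10 related genes, for VWF (red) and LPS (blue) at 3.5 h (open circles) and 16 h (filled squares), with dashed lines at the fold threshold. Marco reached 7.34 with VWF at 16 h, and Spp1 stood at -4.68 there against -0.89 with LPS.

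The genes nearest in pattern were found by the root mean square difference of the 6 group means of log2 CPM, each centred on its own mean, among 8311 genes, or 8312 for Mgl2. Nearest to Lrp1 were Zscan26, Tom1 and Thap12, at 0.09, 0.11 and 0.11. Msr1 was nearest to Cybb (0.18), which encodes the NADPH oxidase subunit gp91phox, then Msantd3 and H2-Ab1. Itgav was nearest to Pogk (0.18), Plaur, which encodes the urokinase receptor, and Ankrd28. Stab1 had Extl3 (0.17), Rrp12 and Tex10, and Itgb3 had Bhlhe40 (0.24), Tm6sf1 and Rragd. Clec10a was nearest to Mamdc2 (0.19), then Gm45716 and Enho. Mgl2 had Gm45716 (0.34), Clec10a (0.35) and Reps2. With group medians in place of means, none of the 3 nearest to Mgl2 remained, and 1 of 3 remained for Lrp1 and for Itgb3.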

How the data were processed

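RNA was sequenced from 28 BMDM cultures, and the authors deposited raw read counts per Ensembl gene, which the submitters' notes link to STAR and GRCm38/mm10. Their annotation, counter and strand setting: not given in the sources used here. Symbols and exon lengths came from GENCODE M21, and TPM was computed from counts and exon length. Groups follow the labels. Genes with at least 10 TPM in 1 or more cultures of a comparison were fitted with edgeR 4.0.16 (R 4.3.3; TMM, robust quasi-likelihood, Benjamini-Hochberg adjustment over all tested genes). A gene was called at an adjusted p under 0.05 and an absolute log2 fold change above 1. DESeq2 1.42.0, other scalings and filters, 1 fit over all groups, a replicate block and the leaving out of each culture were alternatives. The fits were tested on simulated data.

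The receptor genes, related lists and markers were chosen with earlier results of these data known. Of the related genes 1 is not reported here and was left out of its list. Those named are 10 fixed ones and, per list and comparison with Ctrl, the called gene with the largest absolute change in either direction. Others were named because a count was small, after their values were seen. Same-numbered cultures deviated together (every r above 0.1) only for VWF and LPS at 16 h, with r of 0.159 to 0.781 over 4 pairs, and the block changed no call there. No 2 cultures of a group agreed within counting noise. Depth was 41131209 to 77699206 counts per culture, so counting error is small except for Mgl2.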

Additional observations from a re-analysis of the deposited data

Results flagged for a closer look

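In 4 of the 42 sets formed by a gene and a group, a single culture lay far from the others by Dixon's criterion, which chance meets in about 1 in 20 sets. They were Clec10a in VWF replicate 5 at 16 h (6.73 CPM, the highest of its group), Itgav in the same culture (83.9 CPM, the lowest), Itgb3 in VWF replicate 1 at 3.5 h (11.6 CPM, the highest) and Mgl2 in Ctrl replicate 1 at 3.5 h (0.561 CPM, the lowest).

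Some treatment effects differed between 3.5 h and 16 h by a test of the difference itself (edgeR interaction, adjusted p under 0.05 and a log2 difference above 1). For VWF against Ctrl these were Clec10a (-1.84), Mgl2 (-1.98) and Stab1 (1.54). For LPS against Ctrl they were Clec10a (-3.66), Mgl2 (-2.30), Itgav (-1.08) and Itgb3 (1.24). Between VWF and LPS they were Clec10a (1.80) and Itgb3 (-1.36). By that rule 13.5%, 26.3% and 25.0% of all genes at 10 TPM were called in these 3 comparisons.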

How the results depend on the processing

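Of the receptor gene values under alternatives, 1451 stayed on their side of the adjusted p threshold, 57 lost it, 19 gained it and 1 that had passed turned sign: Msr1 between VWF and LPS at 16 h, at 0.15 with library size alone. Among the 1451 the sign turned in 15, all at an adjusted p above 0.05, among them Clec10a and Mgl2 for VWF at 3.5 h and Itgav between VWF and LPS at 16 h. Related genes gave 1042, 11, 12 and 6, with 13 more turns of sign on the same side of the threshold. With library size alone these turned to -0.18 (Selplg, VWF at 3.5 h), -0.043 (Selplg, LPS at 3.5 h), -0.33 (Itgam, LPS at 3.5 h), -0.37 (Itgb1, LPS at 3.5 h), -0.060 (Lrpap1, LPS at 16 h) and -0.18 (Itgam, LPS at 16 h). The cause was not tested beyond the shift of the median given above.

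Counts of called receptor genes moved as follows. Without the fold threshold there were 5 for VWF and 6 for LPS at 3.5 h, where 43.6% and 65.7% of all genes tested passed. At 16 h there were 5 for VWF and 5 for LPS, against 27.7% and 53.7%. Between VWF and LPS there were 2 at each time, against 50.2% at 3.5 h and 60.5% at 16 h. Over time there were 4 in Ctrl (41.1% of all genes) and 4 in LPS (60.9%). By time there were 3 for VWF (32.6%), 5 for LPS (48.8%) and 3 for VWF against LPS (52.7%). With filterByExpr, or with no filter, more genes were tested and the counts were 4 for VWF at 16 h and 2 between VWF and LPS at 16 h. They were 4 over time in VWF and 2 for VWF against LPS by time. With filterByExpr 9.47%, 27.1%, 24.4% and 23.6% of all genes were called in these comparisons in turn. With library size alone the count was 1 between VWF and LPS at 3.5 h and 4 for LPS at 16 h, where Lrp1 and Stab1 went past the fold threshold. On that scale Msr1 for LPS at 3.5 h went under the threshold (0.99). Of the list counts, 547 stayed within 1.5 times and 47 moved. Leaving out 1 culture gave 1 to 2 for VWF at 3.5 h (1 without Ctrl replicate 4, where Itgb3 left the filter), 3 to 4 for LPS at 3.5 h, and 2 to 3 over time in Ctrl and for VWF or LPS by time.

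With the replicate block, the counts of called receptor genes stayed at 2 and 4 for VWF and LPS at 3.5 h, 2 and 2 at 16 h, and 0 and 1 between VWF and LPS. The block moved the adjusted p of Lrp1 for VWF at 16 h to 0.119, of Clec10a between VWF and LPS at 3.5 h to 0.0368, and of Lrp1 and Mgl2 over time in Ctrl to 0.0627 and 0.0519. Outside VWF and LPS at 16 h some same-numbered cultures did not deviate together, with r from -0.41 to 0.68 for VWF against Ctrl at 3.5 h. The labels do not say what a shared number stands for.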
